A study of Caenorhabditis elegans with 72 samples.

Results

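The comparison described here set *malt-1; npr-1* double mutants, called *malt-1* mutants below, against *npr-1* animals. *malt-1* encodes the only paracaspase of *C. elegans*, a caspase-like protease and scaffold related to mammalian MALT1. Of the 46624 genes in the table, 13867 (29.7%) had an FPKM of at least 1 in either genotype and are its members. FPKM is a fragment count corrected for the depth of sequencing and for how long the transcript is, so levels can be compared between genes. Just inside this limit lay *Y82E9BL.18*, at 1.00 FPKM in *malt-1* mutants and 0.794 in *npr-1*. *lron-4* lay just outside it, at 0.916 FPKM in *malt-1* mutants and 0.99996 in *npr-1*.

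RNA was taken from whole animals at late L4, the end of the last larval stage. The *malt-1* libraries are labelled *malt-1* and the control libraries *npr-1*, all with AX204 as strain background; the control libraries carry the title WT but are *npr-1* mutants, as are the *malt-1* mutants. No allele of *malt-1* is given in the labels. Eggs were laid by 10 gravid adults per plate within 2 h, on OP50 bacteria that had been seeded 24 h before, and 8 to 10 plates were pooled for a replicate. The labels list 18 libraries of *malt-1* mutants and 18 of *npr-1*, of 72 in the series with 4 genotypes, and these are more than the biological replicates stated in the study's methods, so several libraries come from 1 replicate. Markers of the tissues of a whole animal were present, with 21 of 21 pan-neuronal, 32 of 35 muscle filament, 11 of 15 intestinal and 28 of 28 germ line genes at 1 FPKM or more. The table holds 1 FPKM value per genotype and none per library. No spread between replicates, error or test can therefore be given for any value below, and a gene is called higher or lower only by size, at a ratio of at least 1.5 in either direction.

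IL-17 cytokines signal through paired receptors to the adaptor Act1, and in *C. elegans* the pathway runs from the ligand ILC-17.1 through the receptors ILCR-1 and ILCR-2 to ACTL-1, the IRAK-type kinase PIK-1, MALT-1 and the IκB-like protein NFKI-1. It acts in neurons, where it raises the responsiveness of interneurons that receive input from oxygen-sensing neurons. Animals without the neuropeptide receptor NPR-1 gather on food and leave high oxygen, and every group here carries this mutation.

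*malt-1* itself was at 3.99 FPKM in *malt-1* mutants and 6.49 FPKM in *npr-1*, a log2 ratio of -0.70. Its transcript was thus lower in the mutants but not absent. The table places *malt-1* on chromosome II, 6928770 to 6951300, in a locus that it shares with 3 other genes, and gives no build for its coordinates. In the comparisons of *malt-1* mutants with the other mutants of the series, *malt-1* had a log2 ratio of -1.04 against *ilc-17.1* mutants and of -0.66 against *nfki-1* mutants.

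The other components were close between the genotypes. *nfki-1* stood at 17.97 FPKM in *malt-1* mutants and 23.9 in *npr-1* (log2 ratio -0.41). The kinase gene *pik-1* had 9.96 FPKM in *malt-1* mutants and 10.1 in *npr-1*. *actl-1*, which encodes the adaptor, had 6.22 FPKM in *malt-1* mutants and 6.64 in *npr-1*. Both receptor genes were slightly higher: *ilcr-2* at 28.7 FPKM in *malt-1* mutants against 27.3 in *npr-1*, and *ilcr-1* at 7.72 in *malt-1* mutants and 6.98 in *npr-1*. The ligand gene *ilc-17.1* was below the limit, at 0.224 FPKM in *malt-1* mutants and 0.310 in *npr-1*, and so was *npr-1*, at 0.576 FPKM in *malt-1* mutants and 0.559 in *npr-1* animals. *malt-1* was the only one of the 6 pathway members past 1.5-fold.

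Of the 13315 members with a value above 0 in both genotypes, 823 (6.18%) were at least 1.5-fold higher in *malt-1* mutants and 599 (4.5%) at least 1.5-fold lower. The median log2 ratio was 0.01, with 6810 ratios above 1 and 6505 below. The 11921 protein-coding genes among them had 487 (4.09%) higher and 388 (3.25%) lower, and 90% of their log2 ratios lay between -0.44 and 0.53. Only 34 protein-coding genes were 4-fold or more higher and 30 were 4-fold or more lower.

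The share called varied with the level and type of the gene. Among protein-coding genes whose larger value was 1 to 5 FPKM, 9.89% were higher and 9.89% lower, whereas among those of 100 FPKM or more 1.55% were higher and 1.1% lower. The 580 ncRNA genes with a ratio had 32.9% higher and 25.3% lower, and the 107 snoRNA genes 39.3% higher and 16.8% lower. The shares over all members, set beside gene lists below, include these classes and are larger than those of protein-coding genes. Of the 15 highest ratios overall 6 belonged to these classes, and of the 15 lowest 8 did. At one locus on chromosome I the snoRNA gene *F58D5.11* was at 0.00782 FPKM in *malt-1* mutants and 38.3 in *npr-1*, while the overlapping ncRNA gene *F58D5.13* was at 14.5 FPKM in *malt-1* mutants and 0.00695 in *npr-1*. Opposite values of this size at a shared locus cannot be told apart from a different division of the same reads. Apart from *tts-1* and examples listed at 0 in 1 genotype, single ncRNA and snoRNA genes are not described further here.

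**Figure D1:**
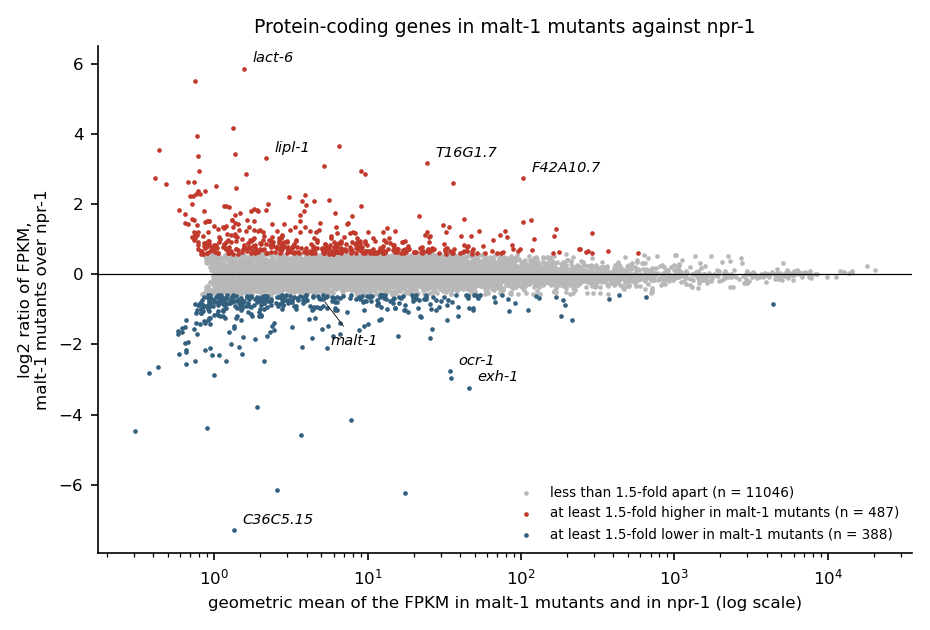
Each point is a protein-coding gene with a value above 0 in both genotypes. The horizontal axis gives the geometric mean of its FPKM in *malt-1* mutants and in *npr-1* on a log scale, and the vertical axis the log2 ratio of *malt-1* mutants over *npr-1*. Red points (n = 487) were at least 1.5-fold higher and blue points (n = 388) at least 1.5-fold lower in *malt-1* mutants; both thin out as the level increases.

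The 25 highest and 25 lowest protein-coding ratios at 5 FPKM or more in either genotype were looked at together, a set chosen after the values were seen. *lact-6*, a member of the beta-lactamase-like *lact* family, had the highest ratio, with 11.9 FPKM in *malt-1* mutants and 0.205 in *npr-1*. This is a 57.97-fold difference, at a locus that holds 2 genes. The chemoreceptor gene *srab-16* followed at 5.05 FPKM in *malt-1* mutants against 0.112 in *npr-1*. Both were therefore near the floor in *npr-1* and moderate in *malt-1* mutants. *F42A10.7* differed at a higher level, with 267 FPKM in *malt-1* mutants and 39.9 in *npr-1*, and *W02D7.11* had 23.1 FPKM in *malt-1* mutants and 1.83 in *npr-1*.

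Lipase genes and a gene next to one of them stood in the same group. *lipl-1*, which encodes a lysosomal acid lipase, was at 6.84 FPKM in *malt-1* mutants and 0.692 in *npr-1*, 9.90-fold apart. It lies on chromosome V, 12919952 to 12921692, just before *T16G1.7* at 12929478 to 12935112, which shares its locus with 1 other gene and had 72.8 FPKM in *malt-1* mutants and 8.15 in *npr-1*. *T16G1.6* and *T16G1.4*, from the same clone, were higher as well, at 12.18 and 5.86 FPKM in *malt-1* mutants against 5.92 and 3.36 in *npr-1*. Not all genes of the clone were: of the 8 T16G1 genes with a ratio, 3 were higher (37.5%) and 0 lower. *T16G1.9* was near parity, at 46.7 FPKM in *malt-1* mutants and 44.4 in *npr-1*. The related lipase gene *lipl-2*, elsewhere on chromosome V, was at 7.199 FPKM in *malt-1* mutants and 2.05 in *npr-1*.

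At the low end stood a run of neighbouring genes on chromosome V. From 3157077 to 3168750 the table lists *exh-1*, *C36C5.12*, *C36C5.14* and *C36C5.15*, each with a locus of its own. *C36C5.15* was at 0.107 FPKM in *malt-1* mutants and 16.8 in *npr-1*, 157-fold lower. *C36C5.14* had 0.307 FPKM in *malt-1* mutants and 21.6 in *npr-1*, and *C36C5.12* had 1.86 in *malt-1* mutants and 33.1 in *npr-1*. *exh-1* had the smallest fold difference of the run and the highest level, at 14.9 FPKM in *malt-1* mutants and 140 in *npr-1*. On chromosome I, *F59C6.18* was at 2.01 FPKM in *malt-1* mutants and 151 in *npr-1*, 75.3-fold lower.

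Genes of known kinds were also among the lower ones. *ocr-1*, a TRPV channel gene, was at 13.2 FPKM in *malt-1* mutants and 90.1 in *npr-1*, 6.82-fold lower, although its locus on chromosome V (10764366 to 10768454) is shared with 1 other gene. *ugt-44*, a UDP-glycosyltransferase gene, had 8.60 FPKM in *malt-1* mutants and 28.9 in *npr-1*. The scavenger receptor gene *scav-5* was at 5.65 FPKM in *malt-1* mutants against 15.9 in *npr-1*. Outside the 25 lowest, *dyf-3*, needed for the assembly of sensory cilia, was at 2.97 FPKM in *malt-1* mutants and 7.02 in *npr-1*, and *C04C3.14*, which is one of the 25 lowest and ends just before *dyf-3* begins on chromosome IV, was at 2.64 FPKM in *malt-1* mutants and 11.3 in *npr-1*.

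By difference in FPKM, the order was set by abundant genes. The largest gain was that of *rpl-39*, with 19699 FPKM in *malt-1* mutants and 16792 in *npr-1*, and yet only 1.17-fold. *C17F4.7* showed the largest loss, at 3267 FPKM in *malt-1* mutants and 5915 in *npr-1*, and it was the only gene among the 10 largest losses past 1.5-fold. *ilys-5*, an invertebrate-type lysozyme gene, was at 5725 FPKM in *malt-1* mutants and 4629 in *npr-1* (log2 ratio 0.31). The 5.8S ribosomal RNA gene *rrn-2.1*, which selection for polyA RNA should leave out, was at 6380 FPKM in *malt-1* mutants and 3742 in *npr-1*; the part of this residual rRNA in other values was not tested.

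Chromosome V held 9 of the 25 highest and 11 of the 25 lowest protein-coding ratios, and chromosome IV held 6 and 9. Of the 2181 protein-coding genes with a ratio on chromosome V, 6.42% were higher and 5.69% lower. Chromosome I had 3.4% higher and 1.09% lower of 2119, II 3.96% and 2.26%, and III 2.04% and 2.19%. Chromosome IV had 4.47% higher and 3.52% lower, and X 3.94% and 4.91%. Among 101 windows of 1 Mb with at least 30 protein-coding members, the window from 3000001 to 4000000 on chromosome V had the largest share lower, 18 of 77 genes (23.4%), together with 8 higher. Over all protein-coding genes 3.25% were lower. Several of the 18 were below 5 FPKM in both genotypes, among them *F35F10.13* at 1.42 in *malt-1* mutants and 4.27 in *npr-1*. At 1 to 5 FPKM, 9.89% of protein-coding genes were lower. The window was picked as the largest of the 101. Besides the run around *C36C5.15*, it held *T28A11.2*, at 34.3 FPKM in *malt-1* mutants and 70.2 in *npr-1*, *Y73C8B.9*, at 146 FPKM in *malt-1* mutants and 244 in *npr-1*, and the lectin gene *clec-210*, which was higher. Around *malt-1* itself, by contrast, 7 of 305 protein-coding genes within 1000000 bp on each side were higher (2.3%) and 3 were lower (0.984%).

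Most neuropeptide genes had a ratio below 1 in *malt-1* mutants. FMRFamide-like peptides (*flp*) and neuropeptide-like proteins (*nlp*) are released from dense core vesicles and modulate circuits through G protein-coupled receptors. Of 30 *flp* genes, 27 had a ratio below 1; 5 (16.7%) were at least 1.5-fold lower and 0 were higher, with a median log2 ratio of -0.25. Of 51 *nlp* genes, 42 had a ratio below 1, 8 (15.7%) were lower and 1 was higher, with a median of -0.25. These lists stand beside 4.5% lower and a median of 0.01 over all members.

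*flp-8*, whose promoter is active in oxygen-sensing URX neurons, was at 25.5 FPKM in *malt-1* mutants and 58.8 in *npr-1*, 2.304-fold lower. *flp-32* was at 19.6 FPKM in *malt-1* mutants and 39.9 in *npr-1*. The loci of *flp-8* and *flp-32* hold 2 genes each. *flp-21*, which encodes a ligand of NPR-1, had 21.8 FPKM in *malt-1* mutants and 36.1 in *npr-1*. The other known NPR-1 ligand gene, *flp-18*, was nearer parity, at 42.1 FPKM in *malt-1* mutants and 47.2 in *npr-1*. Among *nlp* genes the lowest ratios were those of *nlp-46*, at 14.6 FPKM in *malt-1* mutants against 34.04 in *npr-1*, and *nlp-61*, at 18.9 in *malt-1* mutants and 34.1 in *npr-1*. The gene that went the other way was *nlp-31*, at 330 FPKM in *malt-1* mutants and 211 in *npr-1*; it encodes a secreted antimicrobial peptide of the epidermis rather than a known neuronal transmitter.

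Insulin-like peptides gave no common direction. Of the 22 insulin-like genes, 10 had ratios above 1 and 12 below. Past 1.5-fold 2 were higher (9.09%) and 2 lower (9.09%), beside 6.18% and 4.5% over all members. *ins-11* was at 22.9 FPKM in *malt-1* mutants and 9.85 in *npr-1*, 2.33-fold higher. *ins-28*, short of 1.5-fold, was at 16.14 FPKM in *malt-1* mutants and 21.9 in *npr-1*. Of the 13 genes of peptide processing and release, 9 had a ratio below 1 and 4 above. *egl-3*, a proprotein convertase gene, was at 43.1 FPKM in *malt-1* mutants and 56.0 in *npr-1*, and *pghm-1*, of the amidation step, at 36.5 in *malt-1* mutants and 48.6 in *npr-1*. None of the 13 passed 1.5-fold. Of 61 neuropeptide receptor genes, 2 were lower (3.28%) and 0 higher, both below the shares over all members, with a median log2 ratio of -0.08.

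Genes used by all neurons stayed within 1.5-fold, most of them with a ratio slightly below 1. Of the 21 pan-neuronal synaptic genes, 15 had a ratio below 1 and 6 above. They had a median log2 ratio of -0.05 and 0 calls in either direction, and their summed level was 1001 FPKM in *malt-1* mutants and 1081 in *npr-1*. *snb-1*, which encodes synaptobrevin, was at 236 FPKM in *malt-1* mutants and 232 in *npr-1*, whereas *rab-3* was at 14.8 in *malt-1* mutants and 17.6 in *npr-1*. All 15 genes of neurotransmitter synthesis, loading, uptake and breakdown had ratios below 1, from -0.39 to -0.01 on the log2 scale, with a median of -0.23 and 0 past 1.5-fold. *cho-1*, the choline transporter gene, was at 3.92 FPKM in *malt-1* mutants and 5.01 in *npr-1*. In RNA of whole animals, fewer cells of a type and less RNA per cell cannot be told apart.

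**Figure D2:**
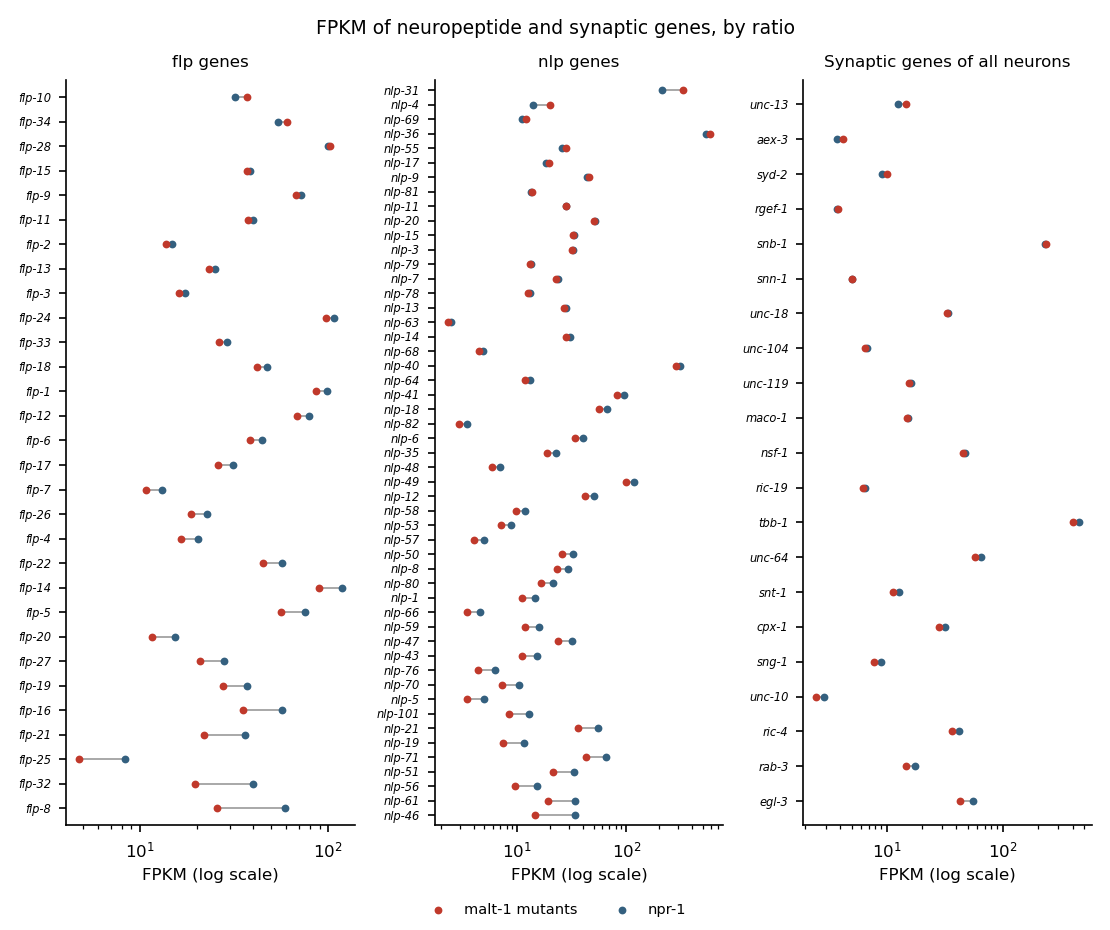
Every *flp*, *nlp* and pan-neuronal synaptic gene with a value in both genotypes is shown by its FPKM (log scale) in *malt-1* mutants (red) and *npr-1* (blue), in the order of the ratio. In the *flp* and *nlp* panels most red points lie left of their blue points, down to *flp-8* (25.5 FPKM in *malt-1* mutants against 58.8 in *npr-1*) and *nlp-46* (14.6 against 34.04). In the synaptic panel the points lie closer together, 15 of 21 red ones to the left.

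Of 117 channel genes, 2 were higher (1.71%) and 3 lower (2.56%). The shares were 6.18% and 4.5% over all members, and 4.09% and 3.25% over protein-coding genes. The potassium channel gene *twk-24* was at 4.64 FPKM in *malt-1* mutants and 8.06 in *npr-1*. Only 27 of 1276 chemoreceptor and odorant response genes reached 1 FPKM, 5 of them higher (18.5%) and 5 lower (18.5%); *srab-16* is of a family outside this list. Cilium genes split, with *dyf-3* lower and *che-13*, of intraflagellar transport, at 6.45 FPKM in *malt-1* mutants and 3.90 in *npr-1*.

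The p38 cascade that drives intestinal immunity did not differ past 1.5-fold, whereas effector families did, in both directions. The 13 cascade members had a median log2 ratio of -0.01 and 0 calls. *tir-1*, the ortholog of SARM1, was at 13.2 FPKM in *malt-1* mutants and 12.16 in *npr-1*, the kinase gene *nsy-1* at 15.2 in *malt-1* mutants and 14.4 in *npr-1*, and the transcription factor gene *atf-7* at 84.5 in *malt-1* mutants and 94.0 in *npr-1*. *hlh-30*, the TFEB ortholog, was at 53.8 FPKM in *malt-1* mutants and 45.6 in *npr-1*.

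Lysozymes, saposins and antimicrobial peptides had the largest number of higher members of any immune list. Of 46 genes with a ratio, 14 (30.4%) were higher and 5 (10.9%) lower, beside 6.18% and 4.5% over all members, and the median log2 ratio was 0.10. The thaumatin-like gene *thn-1* was at 7.92 FPKM in *malt-1* mutants and 2.00 in *npr-1*, 3.95-fold higher. *cnc-4*, a caenacin gene, was at 53.8 FPKM in *malt-1* mutants and 21.4 in *npr-1*. *ilys-3*, an intestinal lysozyme gene, had 12.2004 FPKM in *malt-1* mutants and 5.33 in *npr-1*. The *spp* saposin-like genes had 4 of 18 higher and 0 lower.

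The *fipr* genes, related to fungus-induced proteins, went both ways, with 2 higher and 4 lower of 8. *fipr-24* was at 11.6 FPKM in *malt-1* mutants and 5.08 in *npr-1*, while *fipr-8* was at 7.91 FPKM in *malt-1* mutants and 19.1 in *npr-1*. *lys-2*, an intestinal lysozyme gene, was lower, at 102 FPKM in *malt-1* mutants and 157 in *npr-1*.

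Of 83 C-type lectin genes, 5 were higher (6.02%) and 10 lower (12%), with a median log2 ratio of -0.14. Over all members 6.18% were higher and 4.5% lower, and over protein-coding genes 4.09% and 3.25%. *clec-210* was at 11.6 FPKM in *malt-1* mutants and 2.69 in *npr-1*, and *clec-70* at 50.5 FPKM in *malt-1* mutants and 18.996 in *npr-1*. *clec-49*, with 19.2 FPKM in *malt-1* mutants and 30.2 in *npr-1*, was the only lower one above 5 FPKM past 1.5-fold. The more abundant *clec-50*, at 223 FPKM in *malt-1* mutants and 321 in *npr-1*, differed by less than 1.5-fold.

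Among 16 pathogen response genes of the intestine, 13 had a ratio below 1. Past 1.5-fold 2 were lower (12.5%) and 1 higher (6.25%), beside 4.5% and 6.18% over all members. *K08D8.5* was at 8.85 FPKM in *malt-1* mutants and 16.8 in *npr-1*, *C32H11.4* at 6.09 in *malt-1* mutants and 9.804 in *npr-1*, and *C17H12.8* at 98.8 in *malt-1* mutants and 145 in *npr-1*, the last below 1.5-fold. *sysm-1*, formerly T24B8.5 and known as a readout of p38 signaling, was at 5.66 FPKM in *malt-1* mutants and 3.57 in *npr-1*. With 1 FPKM added to both values its log2 ratio was 0.54, short of 1.5-fold. The direction is opposite to that in the study, which reports reduced T24B8.5 expression in *malt-1* mutants. That result came from a fluorescent reporter in L4 animals, not from RNA, and the difference was not tested. Of 25 genes of the intracellular pathogen response list, 1 was higher (4%) and 2 lower (8%), with a median log2 ratio of -0.11.

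**Figure D3:**
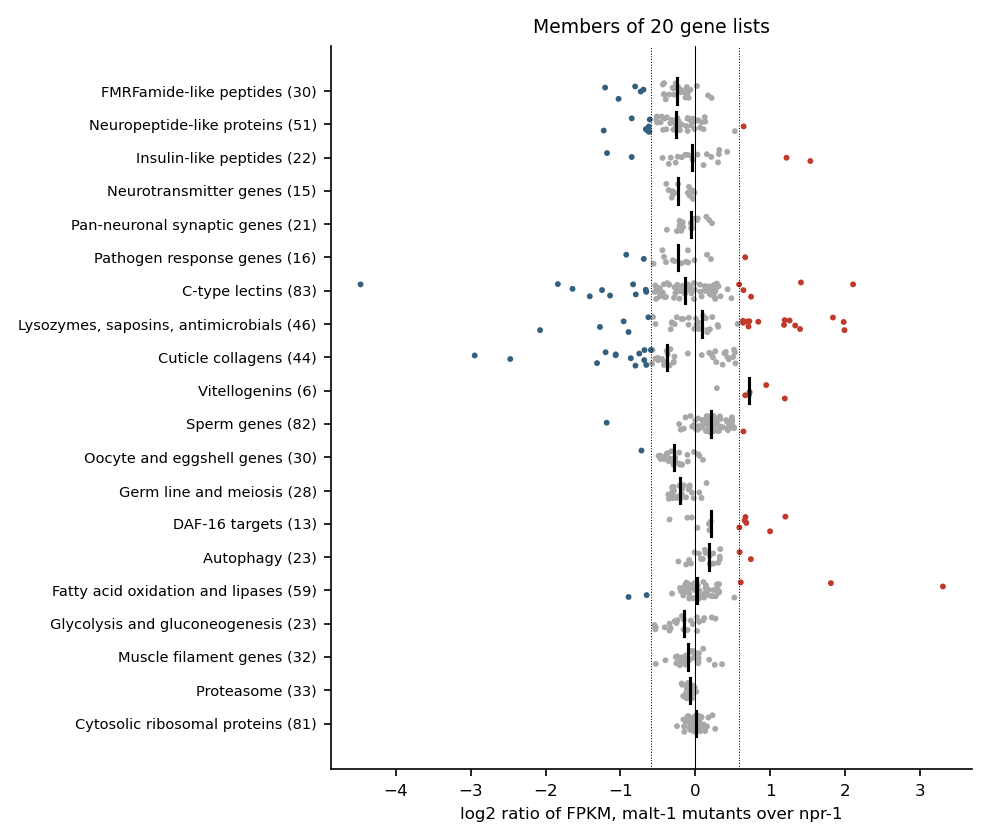
Each point is 1 gene of a list, with the number of genes with a ratio in brackets, placed by its log2 ratio of FPKM in *malt-1* mutants over *npr-1*. Black bars mark the median and dotted lines a 1.5-fold difference; red points lie above it and blue points below. The medians run from -0.37 (cuticle collagens) to 0.72 (vitellogenins), and ribosomal and proteasome genes form narrow bands near 0.

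Markers of the adult body and of the germ line differed between the genotypes, most lists by a small amount. All 6 vitellogenin genes, which encode the yolk proteins made by the adult intestine, had ratios above 1 and 5 were past 1.5-fold, with a median log2 ratio of 0.72 and a summed level of 689 FPKM in *malt-1* mutants and 465 in *npr-1*. *vit-3* was at 19.2 FPKM in *malt-1* mutants and 8.37 in *npr-1*, and *vit-6* at 345 in *malt-1* mutants and 217 in *npr-1*. The copies of this family are alike in sequence, so that reads can be shared among them. The yolk receptor gene *rme-2* was at 26.8 FPKM in *malt-1* mutants and 32.4 in *npr-1*.

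Collagens divided by level. All 7 collagen genes that reached 1000 FPKM had ratios above 1, with log2 ratios between 0.28 and 0.53 and none past 1.5-fold. *col-38*, for example, was at 3181 FPKM in *malt-1* mutants and 2334 in *npr-1*, and *bli-2*, of the struts of the adult cuticle, at 1188 in *malt-1* mutants and 978 in *npr-1*. Of 19 genes between 100 and 1000 FPKM, 15 had ratios below 1 and 4 were lower past 1.5-fold, and below 100 FPKM 14 of 18 had ratios below 1 and 9 were lower past 1.5-fold. *col-137* was at 12.5 FPKM in *malt-1* mutants and 96.7 in *npr-1*, 7.71-fold lower, in a locus shared with 2 other genes. *col-143* was at 20.98 FPKM in *malt-1* mutants and 52.1 in *npr-1*, and *col-119*, of the middle class, at 120 in *malt-1* mutants and 275 in *npr-1*. *col-19*, the usual marker of the adult cuticle, was at 246 FPKM in *malt-1* mutants and 355 in *npr-1*. In all, 13 of 44 collagen genes (29.5%) were lower and 0 higher, beside 4.5% and 6.18% over all members, while their summed level was 22637 FPKM in *malt-1* mutants and 20841 in *npr-1*.

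Sperm genes and oocyte genes leaned in opposite directions. Of 82 sperm genes, 73 had a ratio above 1, with a median log2 ratio of 0.21 and 1 call in each direction. The *msp* genes for the major sperm proteins had 23 of 28 ratios above 1. Of 30 oocyte and eggshell genes, 27 had a ratio below 1, with a median of -0.28, and of 28 germ line and meiosis genes 25 did, with a median of -0.20. *puf-5*, which acts in late oocytes, was at 22.8 FPKM in *malt-1* mutants and 31.7 in *npr-1*, and *pgl-1*, of the P granules, at 152 in *malt-1* mutants and 194 in *npr-1*.

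Of 39 molting genes, 28 were listed at 0 in both genotypes and 2 reached 1 FPKM, *myrf-2* at 27.7 FPKM in *malt-1* mutants and 28.05 in *npr-1* and *bli-3* at 12.4 in *malt-1* mutants and 11.5 in *npr-1*. In addition 3578 of 19701 protein-coding genes were listed at 0 in both genotypes; 1 of 82 cytosolic ribosomal protein genes was among them, so an exact 0 can be a failed estimate and is not read here as low expression. The 7 heterochronic genes with at least 1 FPKM had a median log2 ratio of 0.04 and 0 calls. The part of developmental age in the values for yolk, cuticle, sperm and oocyte genes was not tested.

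**Figure D4:**
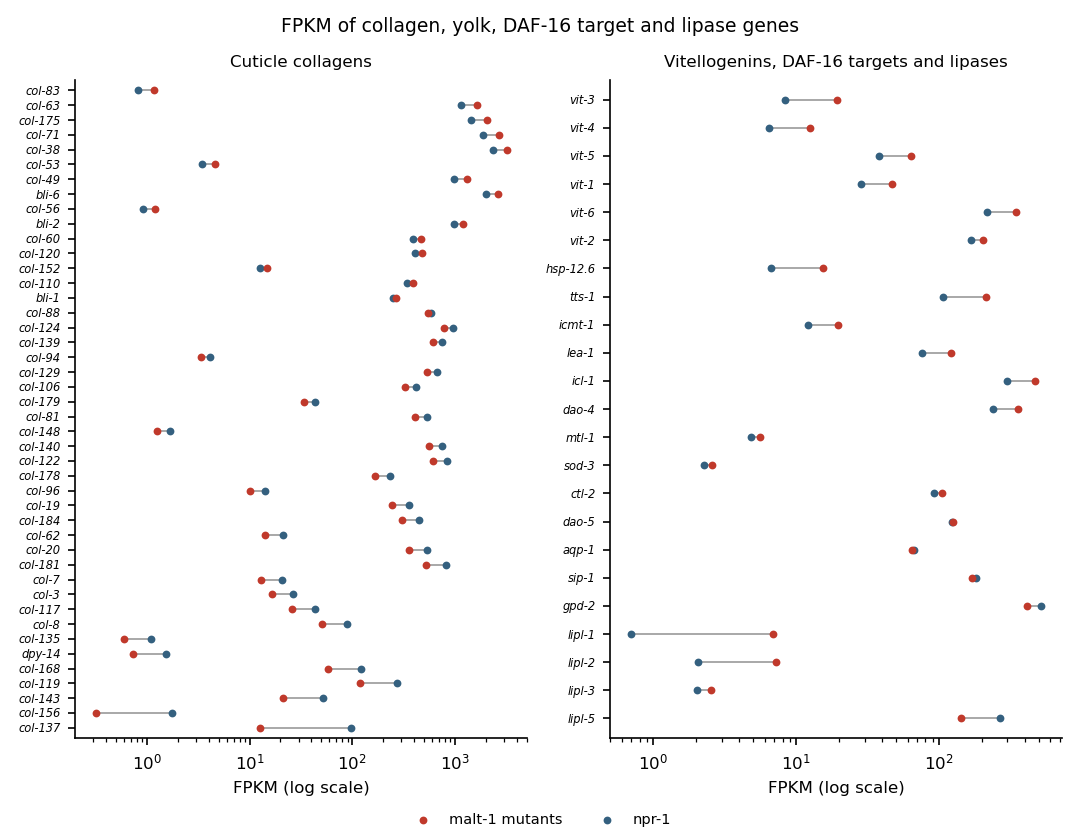
The left panel gives the FPKM (log scale) of every cuticle collagen member in *malt-1* mutants (red) and *npr-1* (blue), in the order of the ratio, and the right panel the vitellogenins, the DAF-16 targets and the lysosomal lipases. The 7 collagens above 1000 FPKM have the red point to the right, whereas *col-137* at the bottom has 12.5 FPKM in *malt-1* mutants and 96.7 in *npr-1*.

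Among targets of the FoxO factor DAF-16 that reached 1 FPKM many were higher, while no gene of the insulin pathway list passed 1.5-fold. The list holds 25 targets, of which 11 were at 0 in both genotypes and 13 reached 1 FPKM. Of these 13, 6 (46.2%) were higher and 0 lower, beside 6.18% and 4.5% over all members. Their median log2 ratio was 0.21, with 10 ratios above 1 and 3 below. The lowest was that of *gpd-2*, at 409 FPKM in *malt-1* mutants and 519 in *npr-1*. The small heat shock gene *hsp-12.6* was at 15.2 FPKM in *malt-1* mutants and 6.62 in *npr-1*. *tts-1*, a long non-coding RNA tied to long life in insulin receptor mutants, was at 211 FPKM in *malt-1* mutants and 105 in *npr-1*. *lea-1*, which protects against desiccation, was at 121 FPKM in *malt-1* mutants and 76.0 in *npr-1*, and *icl-1*, of the glyoxylate cycle, at 466 in *malt-1* mutants and 295 in *npr-1*. *daf-16* itself was at 66.7 FPKM in *malt-1* mutants and 70.9 in *npr-1*, and the 18 genes of the insulin to FoxO list had a median of 0.01 and 0 calls; *akt-2* came nearest, at 26.1 FPKM in *malt-1* mutants and 18.2 in *npr-1*.

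The list of TGF-beta and dauer genes had 2 of 17 lower (11.8%) and 0 higher, beside 4.5% and 6.18% over all members. The median log2 ratio was -0.02. Both lower genes encode enzymes that make dafachronic acids, steroid hormones that set reproductive growth against dauer arrest. *daf-9*, which encodes the P450 enzyme of the last step, was at 3.52 FPKM in *malt-1* mutants and 5.53 in *npr-1*. *daf-36*, of the first step, was at 10.17 in *malt-1* mutants and 15.4 in *npr-1*. The locus of *daf-36* holds 2 genes. Both are close to the limit, and with 1 FPKM added to both values neither *daf-9* (log2 ratio -0.53) nor *daf-36* reached 1.5-fold. The nuclear receptor gene *nhr-8*, which acts in cholesterol balance, was at 10.8 FPKM in *malt-1* mutants and 21.03 in *npr-1*, 1.95-fold lower and the lowest ratio of any nuclear receptor above 5 FPKM. *daf-12*, which encodes the receptor of the hormone, was at 11.6 FPKM in *malt-1* mutants and 11.2 in *npr-1*. Of 153 nuclear receptor genes in all, 2 were higher (1.31%) and 4 lower (2.61%), both below the shares over all members.

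Lipid genes differed singly. *lipl-5*, a lysosomal lipase gene, was at 143 FPKM in *malt-1* mutants and 265 in *npr-1*, opposite in direction to *lipl-1* and *lipl-2*. *atgl-1*, for the lipase of lipid droplets, was at 37.6 FPKM in *malt-1* mutants and 26.2 in *npr-1*, short of 1.5-fold. Of 59 genes of fatty acid oxidation and lipases, 3 were higher (5.08%) and 2 lower (3.39%), beside 6.18% and 4.5% over all members. Their median log2 ratio was 0.02. None of 19 desaturase, elongase and related genes was past 1.5-fold; *fat-6* was at 657 FPKM in *malt-1* mutants and 497 in *npr-1*.

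Glycolytic genes leaned lower, none past 1.5-fold. Of 23, 16 had a ratio below 1, with a median of -0.16. *aldo-1*, an aldolase gene, was at 271 FPKM in *malt-1* mutants and 392.03 in *npr-1*, *pfk-1.1*, a phosphofructokinase gene, at 50.4 in *malt-1* mutants and 73.5 in *npr-1*, and *pck-1*, a carboxykinase gene of gluconeogenesis, at 182 in *malt-1* mutants and 262 in *npr-1*. *icl-1* was the only one of 27 genes of the TCA and glyoxylate cycles past 1.5-fold, and 22 of the 27 had a ratio below 1.

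Detoxification enzymes differed in both directions. Of 26 cytochrome P450 genes, 2 were higher (7.69%) and 4 lower (15.4%), of 23 UDP-glycosyltransferase genes 2 were higher (8.7%) and 3 lower (13%), and of 25 glutathione transferase genes 2 were higher (8%) and 2 lower (8%), beside 6.18% and 4.5% over all members. Beside *ugt-44*, the transferase gene *ugt-30* was higher, at 15.4 FPKM in *malt-1* mutants and 7.54 in *npr-1*. *gst-4*, a widely used readout of the oxidative stress factor SKN-1, was at 57.2 FPKM in *malt-1* mutants and 32.1 in *npr-1*, while *gst-22* was at 11.04 in *malt-1* mutants and 19.6 in *npr-1*. *sqrd-1*, which oxidises hydrogen sulfide and is induced through HIF-1, was at 12.12 FPKM in *malt-1* mutants and 24.4 in *npr-1*, in a locus shared with 23 other genes. In the HIF-1 and hydrogen sulfide list of 18 genes, 2 were lower and 0 higher, with 9 ratios on each side of 1. Besides *sqrd-1*, the lower one was *gst-19*, at 3.04 FPKM in *malt-1* mutants and 6.19 in *npr-1*, while *rhy-1* was at 19.9 FPKM in *malt-1* mutants and 17.5 in *npr-1*, and *cysl-1* at 72.5 in *malt-1* mutants and 82.6 in *npr-1*.

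Autophagy genes leaned upward. Of 23, 18 had a ratio above 1, with a median log2 ratio of 0.19. Past 1.5-fold 2 were higher (8.7%) and 0 lower, beside 6.18% and 4.5% over all members. *atg-9*, for the membrane protein of the autophagy machinery, was at 34.2 FPKM in *malt-1* mutants and 20.4 in *npr-1*, and *epg-5*, of the late steps, at 6.37 in *malt-1* mutants and 4.23 in *npr-1*. *bec-1*, the Beclin gene, was at 45.7 FPKM in *malt-1* mutants and 36.4 in *npr-1*. Among lysosomal genes *asp-17* was lower, at 6.604 FPKM in *malt-1* mutants and 13.5 in *npr-1*, and *nuc-1*, a nuclease gene, was at 63.04 FPKM in *malt-1* mutants and 42.04 in *npr-1*, just short of 1.5-fold.

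Genes of large complexes differed by small amounts, several lists leaning lower. None of 81 cytosolic ribosomal protein genes, 69 mitochondrial ribosomal protein genes, 33 proteasome genes, 45 respiratory chain genes or 32 muscle filament genes was past 1.5-fold, and their median log2 ratios lay between -0.09 and 0.00. Ratios were below 1 for 32 of 33 proteasome, 37 of 45 respiratory chain and 22 of 32 muscle filament genes. The same held for 46 of 69 mitochondrial and 40 of 81 cytosolic ribosomal protein genes. The proteasome genes were the narrowest, between -0.18 and 0.01 on the log2 scale. The histone acetyltransferase gene *cbp-1* was at 26.5 FPKM in *malt-1* mutants and 20.2 in *npr-1*, and none of 33 chromatin genes was past 1.5-fold.

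Mutants of *ilc-17.1* and mutants of *nfki-1* were compared with the same *npr-1* libraries, so the ratios are given only side by side and no overlap is read from them. Below, without a gene stands for the mutants of that gene, all in the *npr-1* background. *T16G1.7* had a log2 ratio of 3.16 without *malt-1*, 3.42 without *ilc-17.1* and 3.14 without *nfki-1*. *flp-8* had -1.204, -1.76 and -1.46 in the same order, and *C36C5.15* -7.30, -4.92 and -7.11.

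The table also sets the mutants directly against each other, without *npr-1*. Of 427 protein-coding genes called at 5 FPKM or more, 30 also differed at least 1.5-fold in the same direction from both other mutants. These were 10 of 263 higher ones and 20 of 164 lower ones, the latter with *malt-1* itself. The same *malt-1* mutant libraries enter every one of these ratios, and the genes were chosen by them. The counts are therefore no separate support for the calls, and the share over all genes was not computed. *ocr-1* was at 13.2 FPKM without *malt-1*, 64.2 without *ilc-17.1* and 39.7 without *nfki-1*, against 90.1 in *npr-1*. *F48E8.8* was at 13.6 FPKM without *malt-1*, 62.2 without *ilc-17.1* and 30.4 without *nfki-1*, with 47.9 in *npr-1*. *Y38F2AL.12* was at 0.511 FPKM without *malt-1*, 7.21 without *ilc-17.1* and 6.08 without *nfki-1*. The collagen genes *col-137*, *col-143*, *col-119* and *col-8* were lower in *malt-1* mutants than in either; *col-8* was at 51.2 FPKM without *malt-1*, 98.1 without *ilc-17.1*, 83.1 without *nfki-1* and 89.1 in *npr-1*.

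Of those that were higher, *nspe-1* was at 28.1 FPKM without *malt-1*, 3.83 without *ilc-17.1*, 7.33 without *nfki-1* and 18.4 in *npr-1*. *H39E20.1* was at 6.61 FPKM without *malt-1*, 1.97 without *ilc-17.1*, 1.67 without *nfki-1* and 1.43 in *npr-1*. These levels come from separate comparisons, which the authors' tool scaled separately. *W09C2.7* behaved otherwise, with log2 ratios over *npr-1* of -4.58 without *malt-1*, -0.16 without *ilc-17.1* and -5.48 without *nfki-1*.

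**Figure D5:**
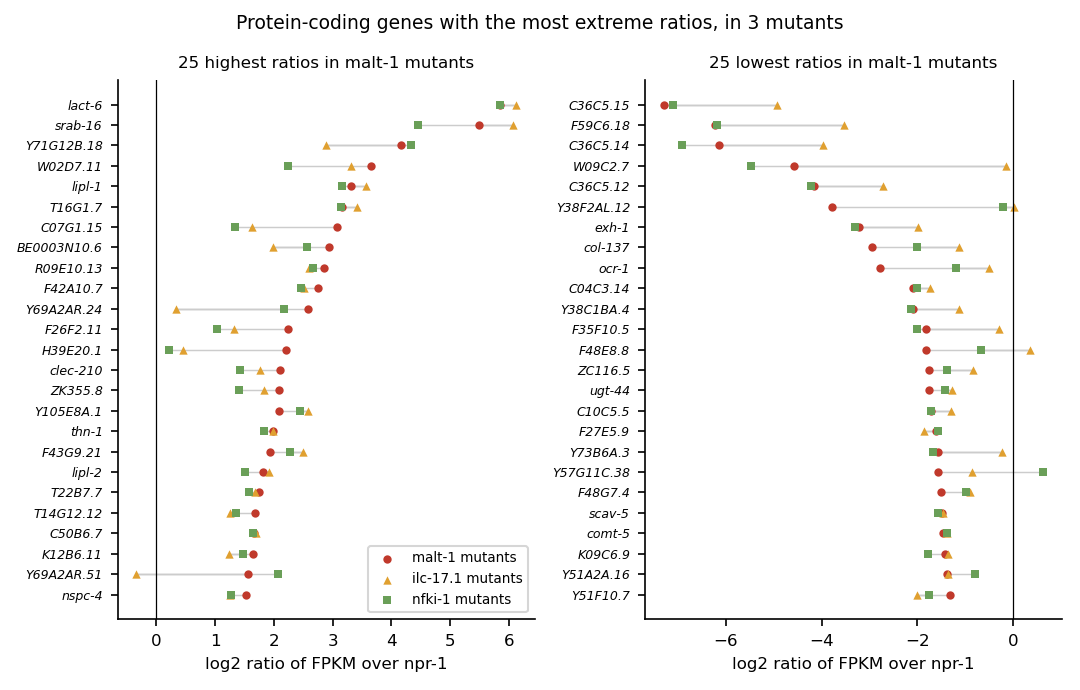
Rows are the 25 protein-coding genes with the highest (left) and the 25 with the lowest (right) ratio in *malt-1* mutants at 5 FPKM or more, and the horizontal axis gives the log2 ratio of FPKM over *npr-1* in mutants of *malt-1* (circles), *ilc-17.1* (triangles) or *nfki-1* (squares). The mutants share the *npr-1* libraries, so points on the same side of 0 are not independent; *ocr-1* and *Y38F2AL.12* have their circles apart from the other marks.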

How the data were processed

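Polyadenylated RNA of whole late L4 animals was sequenced from TruSeq stranded libraries. Per the submitters' processing notes, reads were handled with Trim Galore 0.4.3, TopHat2 2.1.0, Cufflinks 2.2.1 and Cuffdiff. The authors deposited 1 table of 7 pairwise comparisons between genotypes, each gene with 1 FPKM value per genotype, estimated over all libraries of that genotype and scaled within a comparison. The table has 0 columns of per-library values, so depth is unknown and no SD, interval or test was possible. Its columns with the authors' log2 fold changes, test statistics, p-values, q-values and calls were not used.

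Ratios of *malt-1* mutants over *npr-1* were taken from the deposited FPKM without a pseudocount, for genes with at least 1 FPKM in either genotype. Calls needed a ratio of 1.5. Genes listed at 0 in 1 genotype (552) got no ratio. Names and gene types came from the Ensembl 115 annotation of WBcel235 and a table of gene names, and 43276 of 46624 identifiers had a name. Coordinates are those of the table with 1-based starts; its build is not given in the sources used here. No gene sequences are shown, as none were used here. The authors' counting across overlapping genes is not described, and 8503 members have a locus of their own.

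The members, the gene lists and the alternatives were chosen with earlier results of these data known. Genes named are the IL-17 pathway and *npr-1*, up to 4 highest and 4 lowest ratios of each list at 5 FPKM or more, the 15 highest and 15 lowest ratios, the 10 largest differences in each direction and up to 5 genes listed at 0; some of these were left out. Exceptions, chosen after their values were seen, are the 25 extreme protein-coding genes on each side, the genes of windows on chromosome V, those of the mitochondrial genome, those apart from both other mutants, *daf-16* and the genes at the limit of 1 FPKM. The calling step was tested on simulated data, which checks its arithmetic and not the reliability of a call. Python 3.11.15, pandas 2.3.3 and matplotlib 3.10.9 were used. Alternatives were a 2-fold limit, other filters and pseudocounts, scaling by the median ratio, genes with unshared loci and FPKM from the other comparisons.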

Additional observations from a re-analysis of the deposited data

How the results depend on the processing

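With 1 value per genotype, the alternatives could be read only as shifts of counts and ratios. At a 2-fold limit 355 genes were higher and 250 lower, and at the log2 ratio of 0.25 used in the study's methods 2830 and 1758. A minimum of 5 FPKM in either genotype left 427 higher and 280 lower, and without a filter on low values there were 1932 and 1774. Genes with a locus of their own gave 491 higher and 365 lower, and protein-coding genes alone 487 and 388; both settings test fewer genes. A minimum of 1 FPKM in *npr-1* left 609 higher and 599 lower, against 823 and 599 with that minimum in either genotype. Every lower gene meets the minimum in *npr-1*, so this filter could take out only higher ones. With 0.1 FPKM added to both values 1098 were higher and 819 lower, and with 1 FPKM added 881 and 613. Division by the median ratio gave 805 and 605. FPKM from the comparisons with *ilc-17.1* mutants gave 832 and 602, and from those with *nfki-1* mutants 839 and 594. From the minimum in *npr-1* on, both counts stayed within 1.5 times of 823 and 599. Of 579 list medians recomputed, 562 lay within 0.1 of the reported log2 value and 0 turned round beyond that. With 1 FPKM added to both values, 86 of 520 log2 ratios of named genes moved by over 0.1, among them those of genes near 0 in 1 genotype, *C36C5.15* (-4.01 in place of -7.30), *lact-6* (3.42 in place of 5.86) and *srab-16* (2.44 in place of 5.49); 0 of those past 1.5-fold turned round. Under the other scalings 0 of 520 moved by over 0.1. No paired analysis was possible because the table gives 1 value per genotype; leaving out single libraries could not be run for the same reason. Differences near 1.5-fold cannot be separated here from the spread between cultures.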

Other observations

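The 12 protein-coding genes of the mitochondrial genome did not share a direction. *ND6* was at 103.9 FPKM in *malt-1* mutants and 165 in *npr-1*, *COX3* at 2319 in *malt-1* mutants and 1822 in *npr-1*, and *ND1* at 1025 in *malt-1* mutants and 1071 in *npr-1*; 3 of the 12 were at least 1.5-fold lower and 1 higher. In the same table the 45 nuclear genes of the respiratory chain had a median log2 ratio of -0.06.

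Of the members, 552 were listed at 0 in 1 genotype, 239 of them in *malt-1* mutants and 313 in *npr-1*, and 483 of the 552 were ncRNA or snoRNA genes. The ncRNA gene *Y49F6B.17* was listed at 0 in *malt-1* mutants and at 157 FPKM in *npr-1*. The ncRNA gene *T26H2.15*, in a locus that holds 2 genes, was at 78.9 FPKM in *malt-1* mutants and listed at 0 in *npr-1*. Only 21 of the 552 were protein-coding. Long intergenic RNA genes stood apart from coding genes as well, with 23 of 72 higher (31.9%) and 4 lower (5.56%). The shares were 6.18% and 4.5% over all members, and 4.09% and 3.25% over protein-coding genes. Other non-coding classes had like shares higher, 32.9% of ncRNA and 39.3% of snoRNA genes.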
